A study of Homo sapiens with 36 samples.

Results

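The comparison described here set 3 arrays of WA09 cells collected on day 3 of the DSi condition against 3 arrays of cells collected on day 1. The 6 arrays were chosen by their source labels alone, from the 36 arrays of the study, and all 22848 genes with a detected probe were tested. WA09 cells are an established line of human embryonic stem cells. The study followed it on Illumina expression beadchips in 12 groups of 3 arrays: day 0, day 1, DSi and NC at days 3, 6, 8 and 11, and BE at days 8 and 11. Before the experiment the stem cells were kept on mouse feeder cells, and for differentiation they were plated on matrigel. DSi cultures received 100 nM LDN-193189, which inhibits type I BMP receptors, and 10 µM SB431542, which inhibits the receptors of activin, Nodal and TGF-beta. NC cultures, used here for context, received in addition 3 µM CHIR 99021, a GSK3 inhibitor that activates WNT signalling. Day 0 and day 1 carry no condition label of their own, although their treatment label names both LDN-193189 and SB431542, so the difference is read as one between 2 times and not between treated and untreated cells.

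Human embryonic stem cells hold the pluripotent state through activin or Nodal signals relayed by SMAD2 and SMAD3, together with FGF, around the transcription factors POU5F1, NANOG and SOX2. BMP signals, relayed by SMAD1, SMAD5 and SMAD9, draw them towards non-neural fates. When both SMAD branches are blocked the cells take a neural course, and without WNT or retinoid signals the first neural tissue has the character of the anterior brain and eye field. The question asked of these arrays is what changed between day 1 and day 3 of that exit from pluripotency.

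Levels are given as log2 normalized signals, and a difference is DSi day 3 minus day 1 on that scale. On these 6 arrays the dimmest probe above background, meaning a detection p under 0.05, lay between 5.12 and 5.37. Mean signals were 233.6 to 362.9 at day 1 and 268 to 406.3 at DSi day 3, and 34.4 to 38.8% and 36.9 to 40.0% of probes were detected. The first principal component of the 6 arrays, with 49% of the variance, separated the groups, and replicate 2 of both groups stood apart on the second (15.2%). The title of 1 array, DSi day 3 replicate 1, is without a suffix found on all other DSi titles. The labels do not explain the suffix, a different treatment of this array is possible, and results that rest on it are given without it. DSi day 3 replicates 1 and 2 were both closest to the NC day 3 array of the same number rather than to each other. No label says whether replicates came from separate cultures. The p-values reflect the spread within groups, pooled over the 12 groups of all 36 arrays and not taken from these 6 alone. That spread is possibly a technical one, and the number of arrays in each group limits the precision.

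Of 22848 genes, 2199 (9.62%) differed at an adjusted p under 0.05, 1135 (4.97%) higher and 1064 (4.66%) lower at DSi day 3. The counts of called members in each gene list below are to be read against these shares. A single call in a list can be close to them. The change was at least 2-fold for 410 of the higher and 399 of the lower genes, and at least 8-fold for 20 of each. The median difference was 0.86 among the higher and -0.89 among the lower genes, against 0.01 over all genes tested. The 3 arrays of one group lay wholly above the 3 of the other for 94.1% of the called genes, where 23.7% of all genes showed such a separation. With arrays scaled to a common median in place of quantile normalization, 694 genes were higher and 350 lower, so that 66.5% of the calls were rises, against 51.6%. Without DSi day 3 replicate 1 the counts were 760 higher and 706 lower, and without day 1 replicate 2 they were 659 and 730. With the 6 arrays fitted alone they were 801 and 755. In bulk samples fewer cells of a type and less RNA per cell cannot be told apart.

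**Figure D1:**
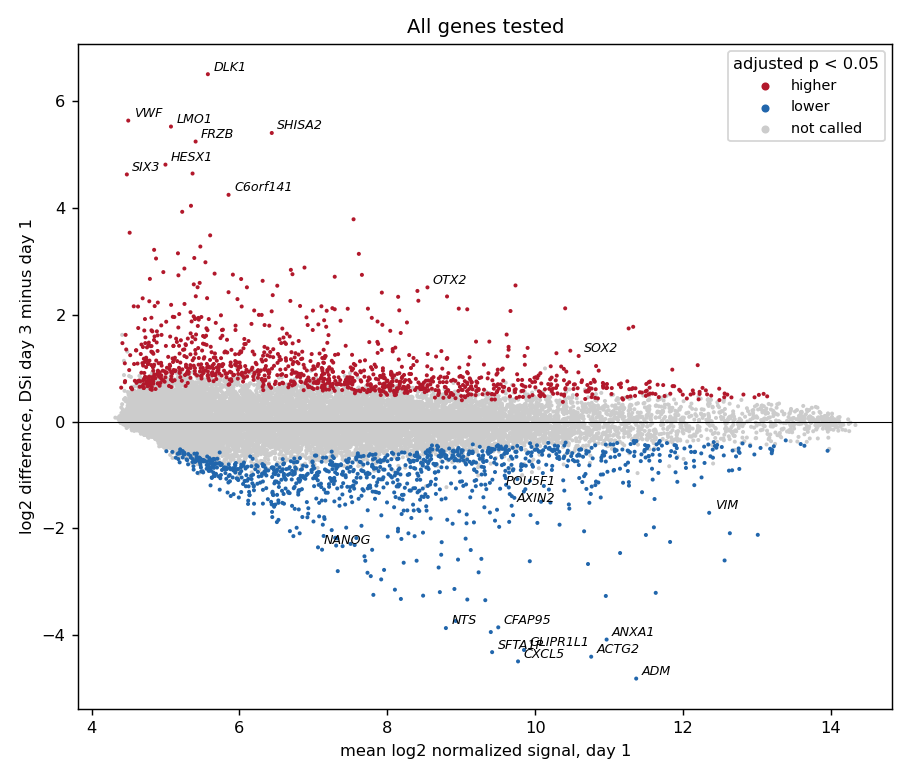
Difference between DSi day 3 and day 1 (vertical axis, log2) against the mean log2 normalized signal at day 1 (horizontal axis) for the 22848 genes tested. Red points are the 1135 genes called higher and blue points the 1064 called lower. The largest rise is that of DLK1 (6.51) and the largest fall that of ADM (-4.82).

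Among called genes whose groups did not overlap, and leaving out symbols that start with LOC or HS., the 15 with the largest rise were DLK1, VWF, LMO1, SHISA2, FRZB, HESX1, SIX3, C6orf141, EPHA4, FLRT3, PAMR1, GREB1L, POU3F1, BMP2 and FEZF1. All 15 were also called under each of the 16 other settings tried, which include leaving out each of the 6 arrays in turn. In 14 of the 15, DSi day 3 replicate 2 was the array nearest to the day 1 mean. The same replicate was the nearest for 54.9% of all genes called higher and 47.1% of those called lower.

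DLK1, an imprinted gene whose membrane protein is related to the Notch ligands, measured 5.88, 5.14 and 5.70 at day 1 and 12.79, 11.28 and 12.18 at DSi day 3. The rise of 6.51 (SE 0.31, adjusted p = 1.4e-20) was the largest of all genes tested. VWF, which encodes von Willebrand factor, a clotting protein known from endothelium and platelets, was at background on the 3 day 1 arrays (4.51, 4.48 and 4.50) and reached 10.44, 9.53 and 10.44, at least 28.8-fold higher (adjusted p = 1.9e-20). LMO1, a LIM-only transcriptional cofactor, rose by 5.53 (SE 0.32), from 4.89, 5.74 and 4.59 to 10.99, 10.26 and 10.55. The ephrin receptor gene EPHA4 rose by 4.04 (SE 0.24) and the transmembrane adhesion gene FLRT3 by 3.93 (SE 0.18). For DLK1, FRZB, EPHA4 and BMP2, 2 of the 3 day 1 arrays were above background, and for LMO1, HESX1 and FLRT3 only 1 was, so the sizes of these rises lean on signals at background.

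Of 18 tested genes of the anterior neural and eye field list, 7 rose and 1 fell, with a median of 0.55, or 0.38 with genes at background in one group set to their bound. HESX1, a homeobox repressor of the anterior neural plate, measured 4.72, 4.78 and 5.49 at day 1 and 10.11, 9.58 and 9.76 at DSi day 3. It rose by 4.82 (SE 0.29, adjusted p = 7.43e-17). SIX3, a homeobox factor of the forebrain and eye field, was at background on the 3 day 1 arrays (4.39, 4.63 and 4.42) and stood at 9.85, 8.50 and 8.98, at least 14.1-fold higher (adjusted p = 3.99e-16). FEZF1, a zinc finger factor of the forebrain, and LHX5, a LIM homeobox factor, were likewise at background at day 1 and were at least 6.84-fold and at least 5.59-fold higher. OTX2, the homeobox factor of forebrain and midbrain, was already present at day 1 (8.72, 8.35 and 8.56) and rose by 2.51 (SE 0.18, adjusted p = 1.81e-14) to 11.32, 10.64 and 11.21. SIX6, another eye field factor, was at background at day 1 and was at least 3.28-fold higher, and EMX1, a cortical homeobox gene, was at background at DSi day 3 and was at least 2.2-fold lower. PAX6, a factor of neural progenitors, measured 5.04, 4.85 and 4.85 at day 1 and 5.82, 4.72 and 4.99 at DSi day 3, overlapping groups near background with a difference of 0.26 (SE 0.23, adjusted p = 0.59) that came to -0.06 without DSi day 3 replicate 1.

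**Figure D2:**
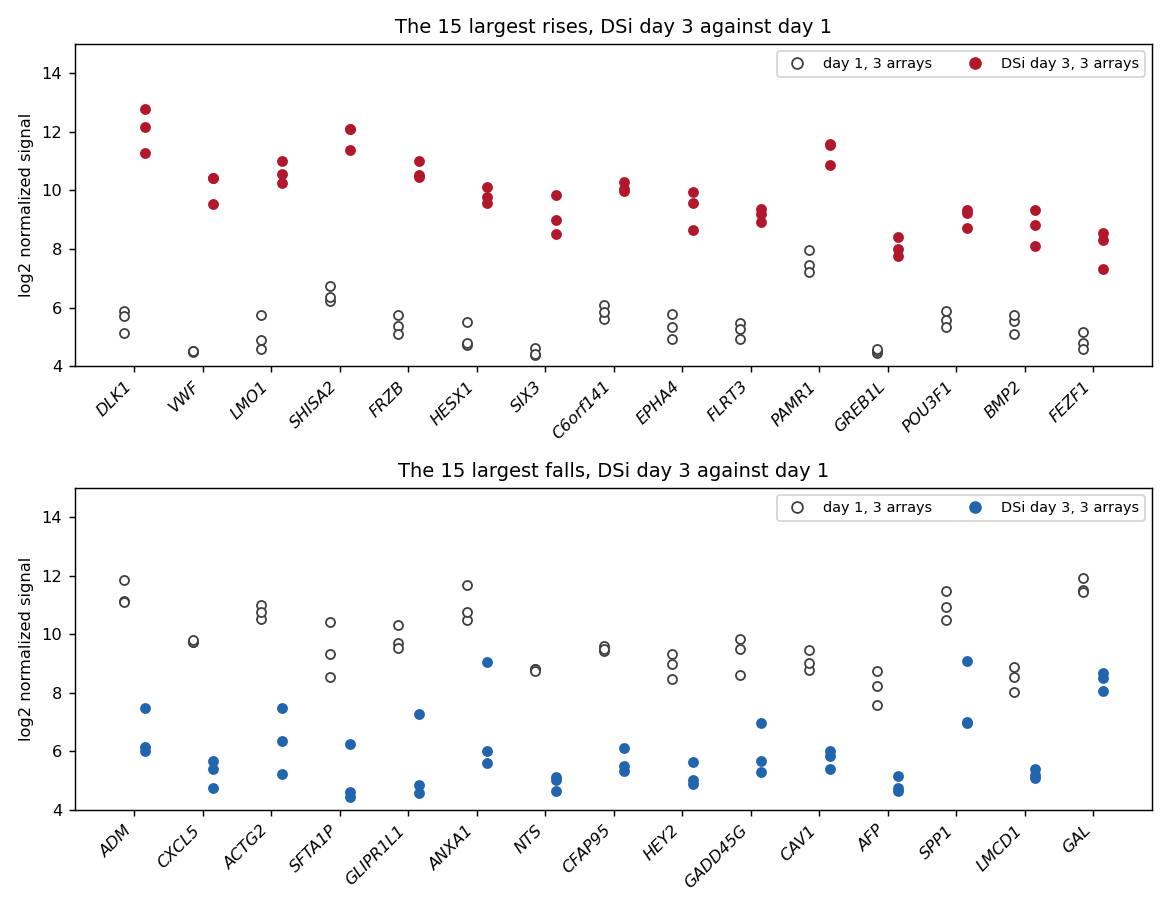
Log2 normalized signal of the 15 largest rises (upper panel) and the 15 largest falls (lower panel) on each of the 3 day 1 arrays (open circles) and the 3 DSi day 3 arrays (filled circles). Genes were chosen among those without overlap between the groups. In many of the falls 1 filled circle, that of DSi day 3 replicate 2, lies nearer to day 1 than the others, such as 9.06 for ANXA1 beside 5.59 and 6.00.

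Of 21 tested early neural plate genes, 10 rose and 0 fell (1 at an unadjusted p under 0.05), with a median of 0.62, or 0.44 with bounds. POU3F1, a POU factor that in mouse promotes neural fate, rose by 3.49 (SE 0.25, adjusted p = 2.19e-14), from 5.89, 5.57 and 5.35 to 9.24, 8.70 and 9.34. The SOX factor genes SOX21, SOX11 and SOX2 rose by 2.07 (SE 0.27), 1.63 (SE 0.15) and 1.23 (SE 0.23). ZIC2, a zinc finger factor of the neural plate, measured 11.13, 10.89 and 11.78 at day 1 and 13.07, 12.83 and 13.12 at DSi day 3, a rise of 1.74 (SE 0.19, adjusted p = 3.09e-09). ZNF521, which in mouse drives the entry of stem cells into the neural lineage, was at least 1.74-fold higher, with 7.06, 5.44 and 5.76 after a day 1 at background. LIX1 rose by 1.04 and the RNA-binding protein gene MSI1 by 0.92. CDH2, the N-cadherin gene, rose by 0.62 (SE 0.15) but stayed below its day 0 level. It was at 12.31 ± 0.10 at day 0, 10.76 ± 0.20 at day 1 and 11.38 ± 0.13 at DSi day 3 (SD, n = 3). With median scaling its adjusted p was 0.0742. The NES and SOX3 differences of -0.38 and -0.51 did not pass the test. SOX1 did not pass the detection filter and was at background on these 6 arrays.

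Only 7 of the 20 genes on the posterior neural list passed the detection filter, and 3 of them rose. Of these CYP26A1 was already at 11.92 ± 0.53 at day 0 (SD, n = 3), so its level alone does not mark posterior cells. IRX3, a homeobox factor of the neural plate behind the forebrain, rose by 2.42 (SE 0.21, adjusted p = 7.96e-12), from 8.20, 7.71 and 7.87 to 9.83, 10.66 and 10.54. CYP26A1, which encodes an enzyme that degrades retinoic acid, stood at 11.53, 11.89 and 10.56 and rose by 1.78 (SE 0.45, adjusted p = 0.00558) to 13.17, 12.99 and 13.15. Without day 1 replicate 3 its difference was 1.39 with an adjusted p of 0.074. NR2F2, a nuclear receptor gene, was at least 1.53-fold higher, and without DSi day 3 replicate 1 its adjusted p was 0.0642. With the authors' deposited values its difference was 0.36 with an adjusted p of 0.253. Among 13 genes of retinoid metabolism 4 rose, namely CYP26A1, the retinoic acid binding protein genes CRABP2 (1.5, SE 0.18) and CRABP1 (1.38, SE 0.21) and the receptor gene RARA (1.30, SE 0.22). RARA came to 0.27 with an adjusted p of 0.422 averaged over its probes, and to 0.32 with an adjusted p of 0.0576 when the authors' deposited values were fitted. The dehydrogenase gene ALDH1A3, whose enzyme makes retinoic acid, fell by 1.41 (SE 0.29, adjusted p = 0.000617).

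**Figure D3:**
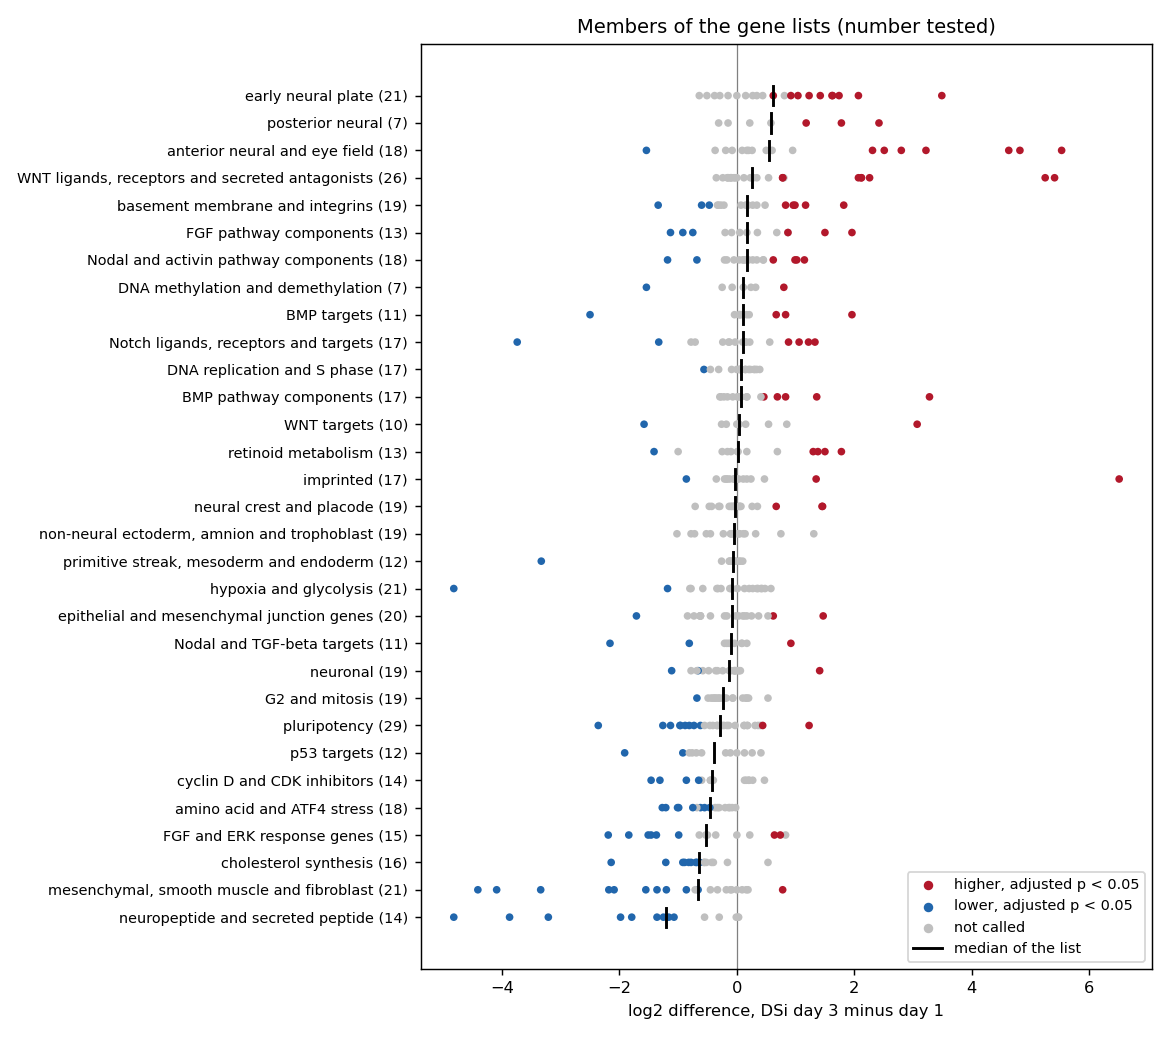
Log2 difference, DSi day 3 minus day 1, of each tested member of the 31 gene lists (points; red higher, blue lower, grey not called), with the median of each list as a black bar and the lists ordered by it. The medians run from -1.20 for neuropeptide and secreted peptide genes to 0.62 for early neural plate genes.

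Genes of the pluripotency list parted. Of 29 tested, 2 rose and 9 fell, with a median of -0.29. NANOG, a homeobox factor that holds the pluripotent state, measured 7.42, 7.38 and 6.39 at day 1 and was at background on the 3 DSi day 3 arrays (4.77, 4.81 and 4.53). It was at least 3.69-fold lower (adjusted p = 5.44e-11), after 9.48 ± 0.37 at day 0 (SD, n = 3). POU5F1, the gene of OCT4, fell by 1.26 (SE 0.31, adjusted p = 0.00412), from 9.67, 9.55 and 9.36 to 7.50, 8.81 and 8.49. Its groups did not overlap, but the call rested on DSi day 3 replicate 1, the lowest array: without that array the difference was -0.88 with an adjusted p of 0.102, and averaged over its probes it was -0.60 with an adjusted p of 0.0827. SOX2, which serves both the pluripotent and the neural state, moved the other way, from 11.14, 10.30 and 10.33 to 12.36, 11.41 and 11.69.

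The other members that fell included DPPA4 (0.96 lower, SE 0.16), a chromatin-associated factor, its partner DPPA2, which was at least 1.39-fold lower, the RNA-binding protein gene L1TD1 and the TGF-beta family ligand gene GDF3. L1TD1 fell by 1.13 (SE 0.33, adjusted p = 0.0181), and its adjusted p was 0.0556 to 0.129 on leaving out either DSi day 3 replicate 1 or 3 or day 1 replicate 1 or 2. DNMT3B, a de novo DNA methyltransferase typical of pluripotent cells, showed a difference of -0.25 (SE 0.20, adjusted p = 0.541), and LIN28A and TERF1 did not pass either (0.36 and -0.41). The count of members that fell was 4 without DSi day 3 replicate 1 and 5 with median scaling. Of 8 defining stem cell markers, 8 were above background on the 3 day 1 arrays and 7 on the 3 DSi day 3 arrays, NANOG being the exception, and their summed level ran from 24525 to 27462 and from 20995 to 24822. The summed level of 7 anterior neuroectoderm markers was 488 to 574 at day 1 and 2952 to 5012 at DSi day 3, with LHX2 and SOX1 still at background.

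The promoter of NANOG, a gene that went to background here, holds a joint binding motif of the OCT4 and SOX2 proteins, and is shown for that motif. A part of these proteins in the fall of NANOG was not tested. The stretch is RefSeq's, GRCh38.p14, chr12:7789222-7789341, plus strand, read 5′ to 3′, with the motif in capitals, the OCT4 part TTTGCAT and the SOX2 part ACAATG with any base between them, which starts 120 bases upstream of the gene's start.
NANOG: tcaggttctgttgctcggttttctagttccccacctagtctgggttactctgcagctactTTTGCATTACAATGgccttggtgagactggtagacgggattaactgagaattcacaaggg
Searched on both strands of the table's windows of up to 300 bases around each start, the motif occurred in 3 of 35116 promoters (0.00854%), and in 1 of the 22 pluripotency genes with a promoter entry, NANOG itself. The match describes the letters of this window and says nothing of binding in these cells.

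NODAL and the LEFTY genes, its direct targets, were at or near background at day 1 and at DSi day 3. LEFTY1, an extracellular Nodal antagonist induced by Nodal, stood at 11.59 ± 0.58 at day 0 and at 5.14, 5.92 and 5.61 at day 1. It was not above background on any DSi day 3 array (4.63, 5.04 and 4.56), at least 1.3-fold lower, a call (adjusted p = 0.0394) that was lost on leaving out DSi day 3 replicate 1 or 3 or day 1 replicate 2 or 3, with adjusted p from 0.104 to 0.237. NODAL and LEFTY2 were at background on the 3 day 1 arrays, with differences of -0.17 and -0.04 that did not pass. Of the 11 Nodal and TGF-beta targets, 1 rose and 2 fell. Among 18 pathway components 4 rose and 2 fell, but 2 rose without day 1 replicate 2 and 2 with the mean of a gene's probes. The receptor genes ACVR2A (1.15, SE 0.27) and ACVR1B (1.02, SE 0.17), which serve activin and Nodal, were among those that rose. Averaged over their probes these came to 0.67 and 0.51, with adjusted p of 0.105 and 0.066, and without day 1 replicate 2 ACVR2A came to 0.82 with an adjusted p of 0.0739.

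On the BMP side, 5 of 17 components rose and 0 fell, also 0 at an unadjusted p under 0.05. The ligand gene BMP2 measured 5.55, 5.11 and 5.76 at day 1 and 8.11, 8.81 and 9.34 at DSi day 3, a rise of 3.28 (SE 0.26, adjusted p = 2.79e-13). BMP7, another ligand gene, rose by 1.36 (SE 0.18, adjusted p = 1.72e-07), from 8.24, 8.00 and 7.97 to 9.37, 9.42 and 9.51. Without DSi day 3 replicate 1, 2 components rose, since ACVR1, SMAD5 and FST, the last encoding a secreted antagonist of activin, came to adjusted p of 0.0814, 0.102 and 0.214. SMAD5 also missed the threshold without day 1 replicate 2 (0.057) and FST without day 1 replicate 3 (0.138). Averaged over their probes SMAD5 and FST had adjusted p of 0.452 and 0.49, and 3 components rose. Of 11 targets of the pathway 3 rose and 1 fell. SMAD6, an inhibitory SMAD induced by BMP, was at background at day 1 (5.04, 5.08 and 5.18) and reached 7.45, 6.68 and 7.06, at least 3.42-fold higher (adjusted p = 1.87e-07). BAMBI, a decoy receptor also induced by BMP, fell by 2.50 (SE 0.29, adjusted p = 1.28e-08), from 8.61, 9.12 and 8.46 to 6.63, 6.39 and 5.68. ID2 rose by 0.83 (SE 0.19). ID1, whose protein sequesters basic helix-loop-helix factors, was spread over 7.32, 5.15 and 6.55 at day 1 and 7.54, 5.93 and 6.18 at DSi day 3. These groups overlapped, the difference of 0.21 did not pass, and it turned to -0.28 without DSi day 3 replicate 1 and to -0.38 without day 1 replicate 2.

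Of 26 WNT ligands, receptors and secreted antagonists 8 rose, all antagonists or Frizzled receptors, and 0 fell, also 0 at an unadjusted p under 0.05. SHISA2, whose Xenopus relative holds Frizzled and FGF receptors inside the cell, rose by 5.41 (SE 0.24, adjusted p = 1.26e-21), from 6.23, 6.72 and 6.36 to 12.08, 11.37 and 12.09. FRZB, a secreted Frizzled-related protein that binds WNT, rose by 5.25 (SE 0.25), from 5.37, 5.75 and 5.11 to 10.99, 10.46 and 10.52. Its relative SFRP1 rose by 2.12 (SE 0.19), and was at 8.04 ± 0.60 at day 0 and 10.41 ± 0.46 at day 1. The receptor genes FZD5, FZD2 and FZD8 rose by 2.26 (SE 0.34), 2.12 (SE 0.25) and 2.07 (SE 0.27), and FZD3 by 0.78. No WNT ligand gene passed the test, WNT5A coming to 0.80. AXIN2, a feedback inhibitor of the pathway that WNT induces widely, measured 9.74, 9.63 and 9.68 at day 1 and 7.95, 8.41 and 7.95 at DSi day 3, a fall of 1.58 (SE 0.17, adjusted p = 2.56e-09). Its day 0 level was 8.24 ± 0.06, and its level at NC day 3, with the GSK3 inhibitor, was 9.41 ± 0.44. Of all genes, 110 (0.481%) differed between the conditions at day 3, 61 (0.267%) higher in NC and 49 (0.214%) lower, AXIN2 among the first. TNFRSF19, a receptor gene also on the target list, rose by 3.07 (SE 0.30), and the other 8 of 10 tested targets were not called.

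FGF signalling genes moved in both directions. Of 13 components 3 rose and 3 fell (1 with median scaling or with the 6 arrays fitted alone), with a median of 0.17, or 0.05 with bounds. FGF17, a ligand gene of the FGF8 family, rose by 1.96 (SE 0.21, adjusted p = 2.57e-09), from 5.39, 4.80 and 5.17, above background on 1 array, to 7.25, 6.91 and 7.07. FGFR3 rose by 1.5 (SE 0.22) and FGF2, the ligand gene whose protein was supplied in the stem cell medium, fell by 0.92 (SE 0.22). Of 15 genes that respond to FGF and ERK, 2 rose and 6 fell, with a median of -0.53. SPRY4, a feedback inhibitor, measured 8.81, 9.75 and 8.61 and fell by 2.19 (SE 0.37, adjusted p = 2.49e-05) to 6.77, 7.22 and 6.60. ETV4, an ETS factor induced by FGF, fell by 1.84 (SE 0.28), from 8.47, 9.38 and 8.59 to 7.29, 6.88 and 6.75. In both genes day 1 replicate 2 was the highest array. IL17RD, a feedback inhibitor as well, rose by 0.74. DUSP4, another, was at background on the 3 day 1 arrays and above it on 2 DSi day 3 arrays and was called higher, and DUSP6 (-0.53) and SPRY2 (-0.50) did not pass.

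Notch genes were mixed too, with 4 of 17 higher and 2 lower. HEY2, a Notch-responsive repressor, fell by 3.74 (SE 0.28, adjusted p = 4.7e-14), from 9.32, 8.48 and 8.97 to 5.02, 5.65 and 4.90, above background on 1 DSi day 3 array. HES1, another such repressor, rose by 1.22 (SE 0.26, adjusted p = 0.000928), from 6.03, 6.79 and 6.43 to 7.76, 7.23 and 7.91, and the receptor gene NOTCH3 rose by 1.06 (SE 0.18). HES5, a Notch target of neural progenitors, fell by 1.33 (SE 0.39, adjusted p = 0.0214), but its arrays overlapped (7.98, 5.55 and 6.86 against 4.61, 6.39 and 5.41). That call was lost on leaving out DSi day 3 replicate 1 or 3 or day 1 replicate 1 or 3, with adjusted p from 0.0636 to 0.29 and a difference of -0.74 without day 1 replicate 1. The list held 2 members that rose without DSi day 3 replicate 3.

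The 15 largest falls, chosen in the same way, were ADM, CXCL5, ACTG2, SFTA1P, GLIPR1L1, ANXA1, NTS, CFAP95, HEY2, GADD45G, CAV1, AFP, SPP1, LMCD1 and GAL, and these too were called under all 16 other settings. DSi day 3 replicate 2 was the array nearest to day 1 in 14 of the 15. ADM, the gene of the vasodilator peptide adrenomedullin, measured 11.13, 11.86 and 11.11 at day 1 and 6.16, 7.48 and 6.01 at DSi day 3, the largest fall of all genes tested (4.82 lower, SE 0.39, adjusted p = 4.25e-13). CXCL5, a chemokine gene, fell by 4.50 (SE 0.25), from 9.75, 9.73 and 9.82 to 5.41, 5.67 and 4.74. GADD45G, a stress-response and growth-arrest gene, stood at 6.68 ± 0.10 at day 0 and at 9.84, 8.62 and 9.51 at day 1, and fell by 3.35 (SE 0.39) to 5.28, 6.98 and 5.67.

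Of 21 genes of the mesenchymal, smooth muscle and fibroblast list, 10 fell and 1 rose, with a median of -0.66. ACTG2, smooth muscle gamma-actin, fell by 4.41 (SE 0.42, adjusted p = 5.44e-11), from 10.52, 11.00 and 10.75 to 5.23, 7.48 and 6.34. ANXA1, a phospholipid-binding annexin, fell by 4.09 (SE 0.56) and CAV1, the coat protein of caveolae, by 3.34 (SE 0.28). TAGLN and CNN1, actin-binding proteins of smooth muscle, fell by 2.09 (SE 0.28) and 2.18 (SE 0.29), while ACTA2 (-0.09) and TPM1 (-0.33) did not pass. VIM, vimentin, fell by 1.71 (SE 0.17, adjusted p = 3.94e-10), from 12.27, 12.61 and 12.19 to 10.86, 10.40 and 10.67. Among 5 defining fibroblast markers 2 were above background on the arrays of both groups, with a summed level of 2015 to 2527 at day 1 and 1348 to 1789 at DSi day 3. COL3A1 and DCN, both defining markers, were at background on the 6 arrays. The part of other cells in these falls was not tested.

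Of 14 neuropeptide and secreted peptide genes, 9 fell and 0 rose (0 also at an unadjusted p under 0.05), with the lowest median of the 31 lists, -1.20. NTS, neurotensin, measured 8.83, 8.81 and 8.74 at day 1 and was at background on the DSi day 3 arrays, at least 12.2-fold lower (adjusted p = 4.38e-16). GAL, galanin, fell by 3.21 (SE 0.28), from 11.52, 11.46 and 11.91 to 8.06, 8.52 and 8.68. VGF, a secreted nerve growth factor-inducible protein, fell by 1.98 (SE 0.25), and the natriuretic peptide gene NPPB was at least 2.41-fold lower. Of 4 neuron markers STMN2 was above background on the 3 day 1 arrays and on 2 at DSi day 3, DCX on 2 and on 3, and ELAVL3 and ELAVL4 on none, and their summed level was 155 to 191 at day 1 and 136 to 153 at DSi day 3. Among 19 neuronal genes 1 rose and 2 fell: MAP2, a microtubule-associated protein of dendrites, was at least 2.35-fold higher (0.40 with an adjusted p of 0.0718 with the authors' deposited values), and NEFL and TUBB3 fell by 1.11 (SE 0.28) and 0.66 (SE 0.20). Without DSi day 3 replicate 3 NEFL had an adjusted p of 0.0622, and TUBB3 had 0.0659 to 0.0953 on leaving out DSi day 3 replicate 1 or day 1 replicate 2 or 3.

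Metabolic and stress genes fell by smaller amounts. Of 16 cholesterol synthesis and uptake genes, 9 fell and 0 rose, with a median of -0.65. No member was higher at an unadjusted p under 0.05. HMGCS1, an early enzyme of the pathway, measured 10.85, 11.18 and 11.15 at day 1 and fell by 0.92 (SE 0.21, adjusted p = 0.00194) to 10.21, 10.52 and 9.70. FDFT1, squalene synthase, fell by 0.78 (SE 0.16, adjusted p = 0.00082), from 12.05, 12.04 and 12.02 to 11.23, 11.51 and 11.02. Neither gene had overlapping groups, and with median scaling their adjusted p were 0.0792 and 0.197. This count leaned on the scaling and the arrays, since 2 genes fell with median scaling and 5 on leaving out DSi day 3 replicate 1 or any of the day 1 arrays.

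Of 18 genes of amino acid metabolism and ATF4-dependent stress, 8 fell and 0 rose, also 0 at an unadjusted p under 0.05, with a median of -0.46. They included VLDLR (-1.27, SE 0.32), the pseudokinase gene TRIB3 (-1.21, SE 0.31), the stress-induced bZIP factor gene ATF3 (-1.01, SE 0.23) and SLC3A2 (-0.75, SE 0.15), which encodes a subunit of amino acid transporters. CHAC1, which degrades glutathione, fell by 0.99 (SE 0.24), with overlapping arrays (5.87, 6.95 and 6.63 against 5.17, 4.97 and 6.35). ASNS, asparagine synthetase, fell by 0.62 (SE 0.20). With median scaling 0 of the 18 were called lower. Without DSi day 3 replicate 1, or without replicate 2, 4 were, and without day 1 replicate 2, or without replicate 3, 5 were. ASNS had adjusted p of 0.0567 to 0.158 on leaving out any array but DSi day 3 replicate 3, and CHAC1 0.0561 to 0.0747 on leaving out DSi day 3 replicate 1 or 2 or day 1 replicate 2. TRIB3 came to adjusted p of 0.129 without DSi day 3 replicate 2 and 0.105 without day 1 replicate 2, and VLDLR to 0.0888 without day 1 replicate 3.

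ATF4 acts through elements with the core TGATGNAA, and 3 promoters of genes that fell are shown with that core in capitals, to let the element be seen in its setting. They are RefSeq's, GRCh38.p14, each read 5′ to 3′ on its gene's strand: ASNS at chr7:97872443-97872502 on the minus strand, CHAC1 at chr15:40953236-40953295 on the plus strand, where the core lies on the opposite strand, and ATF3 at chr1:212565190-212565249 on the plus strand.
ASNS: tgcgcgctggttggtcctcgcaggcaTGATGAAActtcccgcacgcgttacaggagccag
CHAC1: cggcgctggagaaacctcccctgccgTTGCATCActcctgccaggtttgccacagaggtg
ATF3: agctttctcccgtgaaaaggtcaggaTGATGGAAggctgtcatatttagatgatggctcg
The core occurred on either strand in 1270 of 35116 promoter windows (3.62%) and in 5 of the 15 listed genes with a promoter entry, namely ASNS, CHAC1, ATF3, SLC3A2 and HERPUD1, the last of which was not called (-0.12).

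Of 17 DNA replication genes MCM5 alone was called, 0.56 lower (adjusted p = 0.0433), and without DSi day 3 replicate 1 its difference was -0.33 with an adjusted p of 0.402; without day 1 replicate 2 or 3 its adjusted p was 0.171 or 0.17. Of 19 G2 and mitosis genes CDC20 alone was called (0.68 lower, SE 0.15, adjusted p = 0.00119). In the list of D cyclins and CDK inhibitors, which also holds MYC and CDK6, 4 of 14 fell, with a median of -0.43, or -0.32 with bounds. MYC measured 8.29, 8.69 and 8.35 and fell by 1.46 (SE 0.31) to 6.87, 6.81 and 7.26, and CDK6, a G1 kinase, fell by 1.31 (SE 0.27). Without DSi day 3 replicate 3, 2 of the 14 were called lower, as were 2 with the authors' deposited values, with median scaling and without background correction. The p53 targets GDF15, a secreted stress cytokine, and MDM2, the ubiquitin ligase of p53, fell by 1.91 (SE 0.44) and 0.92 (SE 0.25), and 10 of 12 p53 targets were not called. With an offset of 50 or the replicate block, 4 of the 12 fell. MDM2 had an adjusted p of 0.111 without DSi day 3 replicate 1 and 0.054 without day 1 replicate 2.

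CDH1, E-cadherin, showed a difference of 0.17 (SE 0.44, adjusted p = 0.899), and of 20 junction genes 2 rose and 1 fell. The rises were those of CDH2, still below its day 0 level, and ZEB2, and the fall that of VIM. ZEB2, a zinc finger repressor of E-cadherin, was at least 1.88-fold higher. The count of junction genes that fell was 5 with the 6 arrays fitted alone, 4 without background correction and 3 with the authors' deposited values or the replicate block. Among 19 basement membrane and integrin genes 5 rose and 3 fell, but 1 fell without day 1 replicate 2, with median scaling or with the mean of a gene's probes. The collagen IV chain genes COL4A6 and COL4A5 rose by 1.82 (SE 0.21) and 0.83 (SE 0.17). The laminin chain genes LAMB1 and LAMA1 rose by 1.17 (SE 0.17) and 0.99 (SE 0.22). The LAMA1 arrays overlapped (8.71, 8.41 and 9.11 against 10.21, 9.03 and 9.97). The integrin gene ITGA3 fell by 1.34 (SE 0.31) and had an adjusted p of 0.0594 without day 1 replicate 2. The integrin gene ITGA5 rose by 0.96 (SE 0.28), with overlapping arrays (6.55, 5.85 and 6.37 against 7.65, 6.39 and 7.61). Its adjusted p was 0.134 to 0.16 on leaving out DSi day 3 replicate 1 or 3 or day 1 replicate 2.

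Of 5 defining mesendoderm markers and 4 defining neural crest markers, 0 were above background on the 3 arrays of either group. Of 12 tested primitive streak, mesoderm and endoderm genes AFP alone was called: alpha-fetoprotein measured 7.59, 8.74 and 8.22 at day 1 and was at least 8.03-fold lower at DSi day 3, where it was at background. TBXT, the streak factor, showed a difference of 0.10 near background. Of 19 genes of non-neural ectoderm, amnion and trophoblast, 0 were called by limma, with 2 higher and 2 lower at an unadjusted p under 0.05. The differences of DLX5 (1.31) and GABRP (-1.02) were among the wider ones. Of 19 neural crest and placode genes 3 rose, SOX9 (1.45, SE 0.31), EYA2 (1.46, SE 0.27) and MSX1 (0.67, SE 0.22), the last with adjusted p from 0.0675 to 0.184 on leaving out any of the arrays but day 1 replicate 2. With the authors' deposited values EYA2 came to 0.21 with an adjusted p of 0.327, and 1 gene of the list rose. SOX10 and TFAP2A, which define neural crest, were near background (0.26 and -0.05, not called).

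For several of these genes the level moved again later in the DSi course. VWF was at 4.50 ± 0.01 at day 1, 10.14 ± 0.52 at day 3, 8.11 ± 0.36 at day 6 and 4.73 ± 0.03, at background, at day 11 (SD, n = 3). LMO1 went from 10.60 ± 0.37 at day 3 to 8.04 ± 1.05 at day 6 and 6.26 ± 0.19 at day 8. FGF17 was above background on the 3 arrays at day 3 and on none at days 6, 8 and 11. DLK1, in contrast, was at 13.62 ± 0.10 at day 6 and 13.12 ± 0.92 at day 11. Of the genes that fell, ETV5, whose fall had an adjusted p of 0.0716 averaged over its probes, was at 6.51 ± 0.55 at day 1, 5.14 ± 0.42 at day 3 and 8.23 ± 0.66 at day 6, and VIM at 12.35 ± 0.22, 10.64 ± 0.23 and 12.31 ± 0.15. PAX6 and HES5 rose between day 3 and day 6, to 10.36 ± 0.27 and 9.37 ± 0.45 at day 6, differences from day 3 of 5.18 (SE 0.23, adjusted p = 8.81e-22) and 3.90 (SE 0.39, adjusted p = 2.35e-10). Between DSi day 3 and day 6, 3315 genes differed (14.5%), 1557 of them higher at day 6 (6.81%) and 1758 lower (7.69%). These later differences share the DSi day 3 arrays with the comparison above, so the values are set side by side and not correlated.

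**Figure D4:**
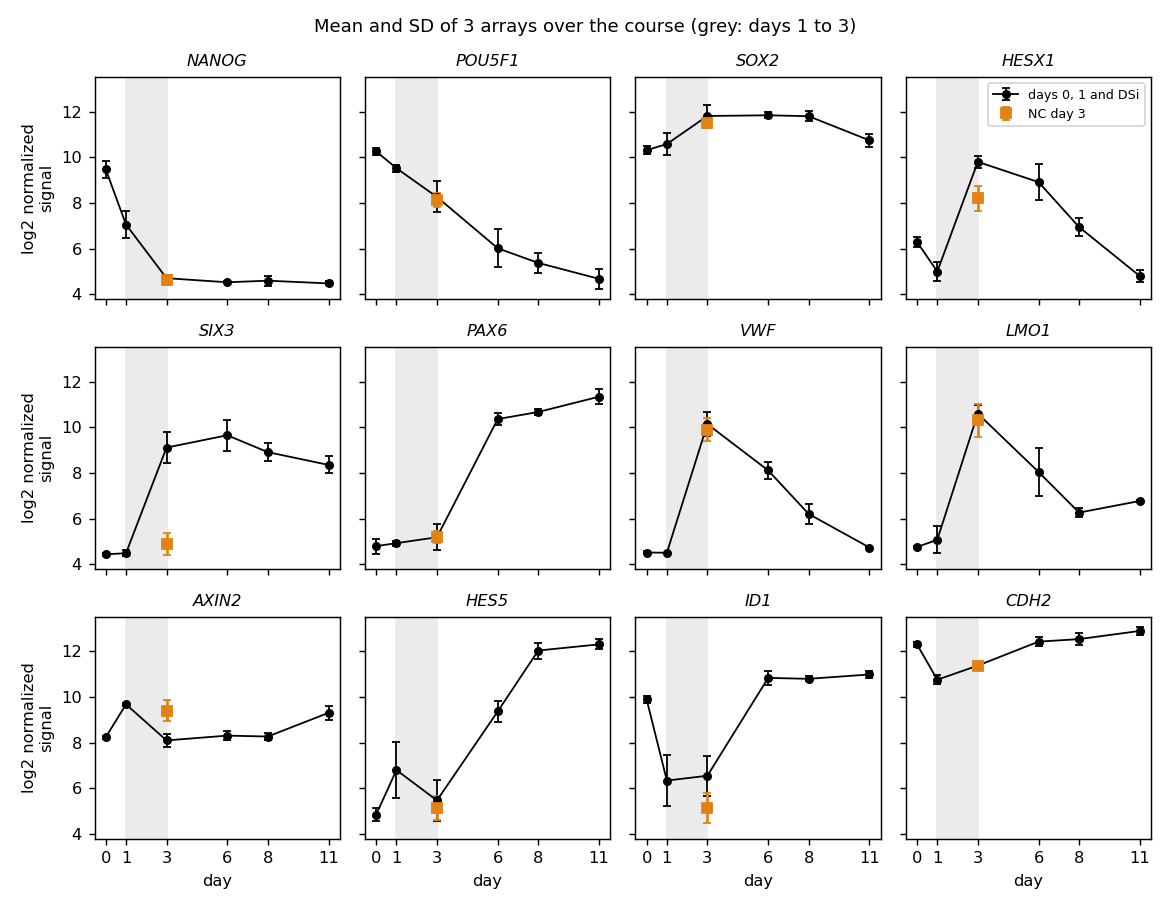
Mean log2 normalized signal with its SD (error bars, 3 arrays a group) of 12 genes at days 0 and 1 and DSi days 3, 6, 8 and 11 (black), with NC day 3 in orange and the interval from day 1 to day 3 shaded. NANOG reaches background by day 3, VWF and LMO1 peak at day 3, PAX6 and HES5 are high from day 6, and SIX3 and AXIN2 differ between the conditions at day 3.

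A comparison whose groups share no arrays with the one described is DSi day 6 minus day 0. In it 6220 genes differed (27.2%), 3147 higher (13.8%) and 3073 lower (13.4%). Both comparisons come from the same fit to 36 arrays and share each gene's estimate of spread. The overlap in calls is therefore a description and not an independent repeat. Of the 1135 genes higher at DSi day 3 than at day 1, 678 (59.7%) were also higher at DSi day 6 than at day 0, which is 21.5% of the genes higher there, and 22 (1.94%) were lower. Of the 1064 genes lower, 796 (74.8%) were also lower there, 25.9% of that list, and 21 (1.97%) were higher. With median scaling the day 6 comparison gave 1912 higher and 2835 lower genes, 40.3% of them rises against 50.6%.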

How the data were processed

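Biotinylated cRNA was hybridised to Illumina beadchips, per the labels' protocols. The deposited probe table held, per the file headers, a mean bead intensity for 47323 probes on each of 36 arrays, not normalized between arrays, and a detection p-value per probe. The authors' deposited gene table held log2 values of 34687 genes, quantile normalized as read from the values (median 6.723 and maximum 14.261 on each array); the submitters' processing notes name Partek, with no version. An annotation build for the arrays is named by none of the sources at hand. The probe table carries no gene names, so names were tied from the authors' table: a gene was given the neighbouring probes whose mean signal reproduced its values on all arrays within 0.002 (root mean square, log2), which held for 34620 genes, and 65 more were placed between such neighbours. Of the symbols, 17757 were current in RefSeq, 2733 were updated and 14197 were kept as given.

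With limma 3.58.1 (R 4.3.3), background was removed by normexp from the detection p-values (offset 16), followed by quantile normalization and log2. A probe had to pass a detection p of 0.05 on 3 or more arrays, and each gene was represented by its brightest such probe on average (22848 genes). Probes that passed alone disagreed in direction for ASTN2, CGGBP1 and ICA1, which are uncertain. A mean for each of 12 groups was fitted to 36 arrays (24 residual degrees of freedom, median residual SD 0.271) with a trended empirical Bayes prior, and two-sided p-values were adjusted by Benjamini and Hochberg over all genes; a call is an adjusted p under 0.05. Genes at background on all arrays of one group have a bound ("at least"): the bright group's mean against, per array, the higher of the dim signal and the lowest signal above background. The fit was tested on simulated data.

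The genes named are the 15 largest rises and falls among called genes with separate groups (symbols starting with LOC or HS. left out), up to 6 called members of each of 31 lists by size of difference, a set of core genes, and a few list members added after their values were seen. Some genes that this rule names are not reported here. Members and lists were chosen with earlier results of these data known. Lists are described by counts and medians only. The correlation of deviations from the group means was 0.19, 0.11 and 0.09 between same-numbered arrays. Between day 1 and DSi day 3 arrays of different numbers it was -0.14 to 0.01, lower than each of these. Replicate numbers were not taken as pairs in the main fit. A fit with a term for the replicate number, the replicate block, is among the alternatives. The alternatives were median scaling, no background correction, an offset of 50, the authors' values, 2 other detection filters, the mean of a gene's probes, only the 6 arrays, no trend, the replicate block and leaving out each array. Promoters and symbols come from RefSeq tables (GRCh38.p14).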

Additional observations from a re-analysis of the deposited data

Results flagged for a closer look

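Of 22848 genes, 110 (0.481%) differed between NC day 3 and DSi day 3, and 6 of the genes described above were among them, which marks their change since day 1 as differing between the conditions by a test of the difference itself. Both changes start from the same day 1 arrays. SIX3 was at background on the 3 day 1 arrays, at least 14.1-fold higher in DSi, and above background on 1 of the 3 NC day 3 arrays. The fitted difference between the conditions, -4.22 (SE 0.30, adjusted p = 1.37e-13), was the widest of the 6, but most of the NC signals behind it were at background. HESX1, its companion in the anterior neural plate, was 4.82 above day 1 in DSi and 3.21 in NC (-1.60, SE 0.29, adjusted p = 0.00137), with 1 of the 3 day 1 arrays above background. AXIN2, a WNT feedback gene, was 1.58 lower than at day 1 in DSi (-1.58) and came to -0.28 in NC, a difference of 1.30 (SE 0.17, adjusted p = 5.34e-06). TNFRSF19 was higher than at day 1 in both, by 3.07 and 4.53 (1.46, SE 0.30, adjusted p = 0.00514), as was FST, by 0.83 and 1.87 (1.03, SE 0.25, adjusted p = 0.0368). The FST rise in DSi came to 0.43 with an adjusted p of 0.49 averaged over its probes. With the authors' deposited values it was 0.58 with an adjusted p of 0.11, and without DSi day 3 replicate 1 it was 0.60 with 0.214. ID1 came to 0.21 in DSi and -1.20 in NC (-1.41, SE 0.31, adjusted p = 0.0131). Groups of 3 arrays were not tested for single outlying samples.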

How the results depend on the processing

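Median scaling moved the counts of DSi day 3 minus day 1 to 694 higher and 350 lower genes, those of NC day 3 minus DSi day 3 from 61 and 49 to 21 and 28 (42.9% rises against 55.5%, with a shift of -0.106 in the median of all genes) and the rises of DSi day 6 minus day 0 from 3147 to 1912; the cause was not tested. Leaving out 1 array at a time, 659 to 1134 genes were higher and 706 to 1000 lower, lowest without day 1 replicate 2 and DSi day 3 replicate 1. Under the other 9 settings the counts ran from 801 to 1366 higher and 755 to 1260 lower, each within 1.5 times of the count reported; falls outnumbered rises with the authors' values (1117 and 1015), the mean of probes (1040 and 1021), no background correction (1112 and 1081) and an offset of 50 (1139 and 1120). With the replicate block, 1366 genes were higher and 1260 lower. For DSi day 6 minus day 0 it gave 3343 and 3240, and for NC day 3 minus DSi day 3, 72 and 63. The 2199 calls all remained, and no named call changed. In deviations from the group means, each day 1 array correlated best with the DSi day 3 array of its own number. The titles of each replicate number have a code in common that the labels leave unexplained, and whether it marks a shared culture or batch is not known. Differences that turned sign belonged to genes not called: TFAP2A (0.01 with the authors' values and with the mean of probes), LEFTY2 (0.03 with median scaling) and, on leaving out 1 array at a time, LEFTY2 (-0.14 to 0.08), PAX6 (-0.06 to 0.49), ID1 (-0.38 to 0.70), ID3 (-0.14 to 0.27) and TBXT (-0.004 to 0.18). Of the 144 named genes, median scaling lost 31 calls, leaving out DSi day 3 replicate 1 lost 27, and the other settings lost 0 to 23. Signals near background limit the size of changes in dim genes, and 2563 genes had an unadjusted p under 0.05 without being called.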

Other observations

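Among 18 imprinted genes listed, 17 were tested, and 2 rose and 1 fell, where 4.97% of all genes rose and 4.66% fell. Beside DLK1, its maternally expressed neighbour MEG3, a long noncoding RNA, was at background at day 1 (4.39, 4.42 and 4.60) and measured 6.88, 5.09 and 5.50 at DSi day 3, at least 1.44-fold higher (adjusted p = 0.0165). Replicate 1 was the highest array, and without it the difference was 0.82 with an adjusted p of 0.259; without day 1 replicate 2 the adjusted p was 0.0593. CDKN1C, an imprinted CDK inhibitor gene, fell by 0.86 (SE 0.26), with overlapping arrays (8.10, 7.33 and 8.01 against 7.03, 7.48 and 6.36), and its call was lost on leaving out DSi day 3 replicate 1 or 3 or day 1 replicate 1 or 3, with adjusted p from 0.0532 to 0.248. IGF2 (0.47), PEG3 (0.03), PEG10 (-0.05) and MEST (0.00) were not called.

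Of 7 tested genes of DNA methylation and demethylation, 1 rose and 1 fell. APOBEC3B, a cytidine deaminase gene, fell by 1.54 (SE 0.19, adjusted p = 4.39e-08), from 6.81, 6.58 and 6.42 to 5.31, 4.63 and 5.25, after 5.12 at day 0. TET1, which oxidises methylcytosine, rose by 0.80 (SE 0.25, adjusted p = 0.0299), with adjusted p of 0.0745 to 0.229 on leaving out DSi day 3 replicate 1 or 3 or day 1 replicate 2 or 3. Of 21 hypoxia and glycolysis genes ADM and ALDOC fell, the latter by 1.18 (SE 0.24), and 19 were not called; with the 6 arrays fitted alone or with the replicate block, 4 fell.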
